A study of Mus musculus with 115 samples.

Results

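The Cyp2b cytochromes of mouse liver were described here with the 4 probes whose symbols were Cyp2b9, Cyp2b10, Cyp2b13 and EG243881 (a predicted gene now called Cyp2b23), of 25697 probes on the array. Each of these symbols had 1 probe, and the probes were taken by symbol from the liver and the adipose tables. The genes were selected on their measured differences between hormone treatments in liver, so those differences are given below as descriptions without a test.

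RNA was measured on Illumina expression arrays, which read 1 colour per array, in 60 arrays of liver and 55 arrays of inguinal adipose tissue. The mice came from a C57BL/6J line, known as the core genotypes model, whose Y chromosome (XY-) has lost the testis determinant Sry. An autosomal copy of Sry, carried or not, sets the gonad independently of whether a mouse is XX or XY. XX and XY- mice lacked Sry and formed ovaries, and XXSry and XY-Sry mice carried the transgene and formed testes. All mice, controls included, were gonadectomised at 75 days of age and at once received a Silastic capsule. It was blank (B), or held testosterone at 5 mM (T), or held 50 µg of estradiol (E), and tissue was taken 3 weeks later. The 12 combinations of genotype and treatment held 5 liver arrays each, and 3 to 5 adipose arrays each. Per the labels' protocols, mice with ovaries and mice with testes were kept in separate cages, so an effect of the gonad before its removal, of the transgene and of the cage cannot be told apart. The labels do not say which animal gave which array, so p-values measure the spread between these arrays.

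Cyp2b enzymes are microsomal cytochrome P450 mono-oxygenases that hydroxylate steroids, drugs and other lipophilic compounds. Cyp2b10 is the best known target of the constitutive androstane receptor (Nr1i3), which phenobarbital-like inducers activate. Cyp2b9 and Cyp2b13 are known for higher expression in the livers of adult female than of adult male mice, a difference that depends on the sex-specific pattern of growth hormone release acting through the transcription factor STAT5.

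The genes lie in a Cyp2 cluster on chromosome 7. In the RefSeq gene table of GRCm38.p6 the order along the chromosome was Cyp2b10, Cyp2b13, Cyp2b9, Cyp2a4, Cyp2b23, Cyp2b19, Cyp2g1, Cyp2a5 and Cyp2a22, with pseudogenes, non-coding genes and genes of other families between them. The 250 bases before each start site, from RefSeq with the build GRCm38.p6, are shown because Cyp2b9 and Cyp2b13 are nearly identical there. The levels of each gene with and without Sry are described below, and a difference between the genes was not tested. The windows were chr7:26173159-26173408 (plus strand) for Cyp2b9, chr7:26061245-26061494 (plus) for Cyp2b13, chr7:26686431-26686680 (minus) for EG243881 and chr7:25897408-25897657 (plus) for Cyp2b10. Each is written 5′ to 3′ on the strand of its gene, and capitals mark matches to the motifs named after the sequences.
Cyp2b9: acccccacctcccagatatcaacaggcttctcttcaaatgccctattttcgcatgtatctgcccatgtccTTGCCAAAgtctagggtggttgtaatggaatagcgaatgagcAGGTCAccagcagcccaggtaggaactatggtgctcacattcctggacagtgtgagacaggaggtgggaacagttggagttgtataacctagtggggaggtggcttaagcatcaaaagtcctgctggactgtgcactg
Cyp2b13: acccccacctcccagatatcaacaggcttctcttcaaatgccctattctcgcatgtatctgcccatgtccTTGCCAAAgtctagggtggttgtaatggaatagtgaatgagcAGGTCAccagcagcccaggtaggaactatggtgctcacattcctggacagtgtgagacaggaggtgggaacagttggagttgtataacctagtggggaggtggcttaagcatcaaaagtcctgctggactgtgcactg
EG243881: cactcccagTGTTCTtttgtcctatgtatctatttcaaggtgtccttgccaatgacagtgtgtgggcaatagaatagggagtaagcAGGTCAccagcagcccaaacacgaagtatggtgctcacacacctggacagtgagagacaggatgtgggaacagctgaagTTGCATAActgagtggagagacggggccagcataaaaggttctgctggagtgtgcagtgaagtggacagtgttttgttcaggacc
Cyp2b10: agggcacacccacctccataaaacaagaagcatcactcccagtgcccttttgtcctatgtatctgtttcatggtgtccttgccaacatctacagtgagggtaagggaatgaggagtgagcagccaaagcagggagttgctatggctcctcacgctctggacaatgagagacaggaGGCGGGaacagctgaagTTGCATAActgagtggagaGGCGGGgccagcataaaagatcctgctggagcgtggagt

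The Cyp2b9 and Cyp2b13 windows had the same base at 248 of 250 positions (99.2%), and the 2 substitutions were T48C and C104T, with positions counted from 1 at the 5′ end of the window and the base of Cyp2b9 first. In alignments without the ends that did not overlap, the EG243881 window was identical to that of Cyp2b10 at 85.3% of positions and to that of Cyp2b9 at 77.3%, and the Cyp2b9 and Cyp2b10 windows were identical at 75.8%. Motifs were searched on both strands, and no match overlapped another. AGGTCA, a nuclear receptor half-site, was found in Cyp2b9, Cyp2b13 and EG243881, and in 14.0% of 32851 promoter windows of the same length. TTGCNNAA, a C/EBP motif, was found in all 4 windows and in 9.56% of all windows. AGAACA, a steroid receptor half-site, was found on the minus strand of the EG243881 window (16.1% of all windows), and GGCGGG, a GC box, in the Cyp2b10 window (32.5%). TTCNNNGAA, a STAT motif, and TATAAA, the TATA box, were in none of the 4 windows (7.02% and 12.4% of all windows). The probe sequences were not used here, so how far the probes of such close genes share signal was not tested.

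A level below is the log2 of the normalised intensity, and a probe counts as detected on an array at a detection p under 0.01. Levels of different probes depend on the probe and are not set against each other. In liver the Cyp2b9 probe was detected in 60 of 60 arrays, the EG243881 probe in 58, the Cyp2b13 probe in 42 and the Cyp2b10 probe in 4. A probe entered the fit if it was detected in at least 5 liver arrays or 3 adipose arrays, which 3 of the 4 probes did in each tissue, all but Cyp2b10. The 8 hepatocyte markers on the array (Alb, Apoa1, Apoa2, Ttr, Fgb, Serpina1a, Ahsg and Tat) were detected in every liver array, with a mean level of 11.85 to 12.49.

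Before the results, 3 liver arrays need naming. The array labelled XY-Sry T replicate 5 had a level of the X-inactivation transcript Xist of 6.63, within the 6.35 to 7.40 of the XX arrays and above the 4.43 to 5.45 of the other XY arrays, and its Y-linked Eif2s3y level of 4.53 lay with the XX arrays. The array labelled XY- E replicate 5 had a level of Hsd3b5, a steroid dehydrogenase of male liver, of 12.26, against 4.50 to 7.50 in the other 4 XY- E arrays and 11.15 to 12.95 in the testosterone arrays. Hsd3b5 did not separate the treatments fully, since XXSry E arrays lay at 8.47 to 11.19 and the highest of them was within the testosterone range. The array XX E replicate 1 was low in the Cyp2b probes, while its Hsd3b5 level of 4.91 lay just below the 5.07 to 7.14 of the other 4 arrays of its group. Values without them are given beside the results they move.

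With blank capsules Cyp2b9 stood high in all 4 genotypes, at 13.19 to 13.97 with a median of 13.67 over 20 arrays. Under testosterone it lay at 5.56 to 9.20 with a median of 7.58, and no testosterone array reached the blank range. The median deposited signal, on the linear scale and not corrected for background, was 13857 in the blank arrays and 307 in the testosterone arrays. Estradiol arrays lay at 8.31 to 13.87 with a median of 13.41, and only 3 of the 20 fell below the lowest blank array. On the log2 scale the fitted difference from blank was -6.13 ± 0.30 (SE) for testosterone, a 70.0-fold lower level, and -0.65 ± 0.30 for estradiol.

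**Figure D1:**
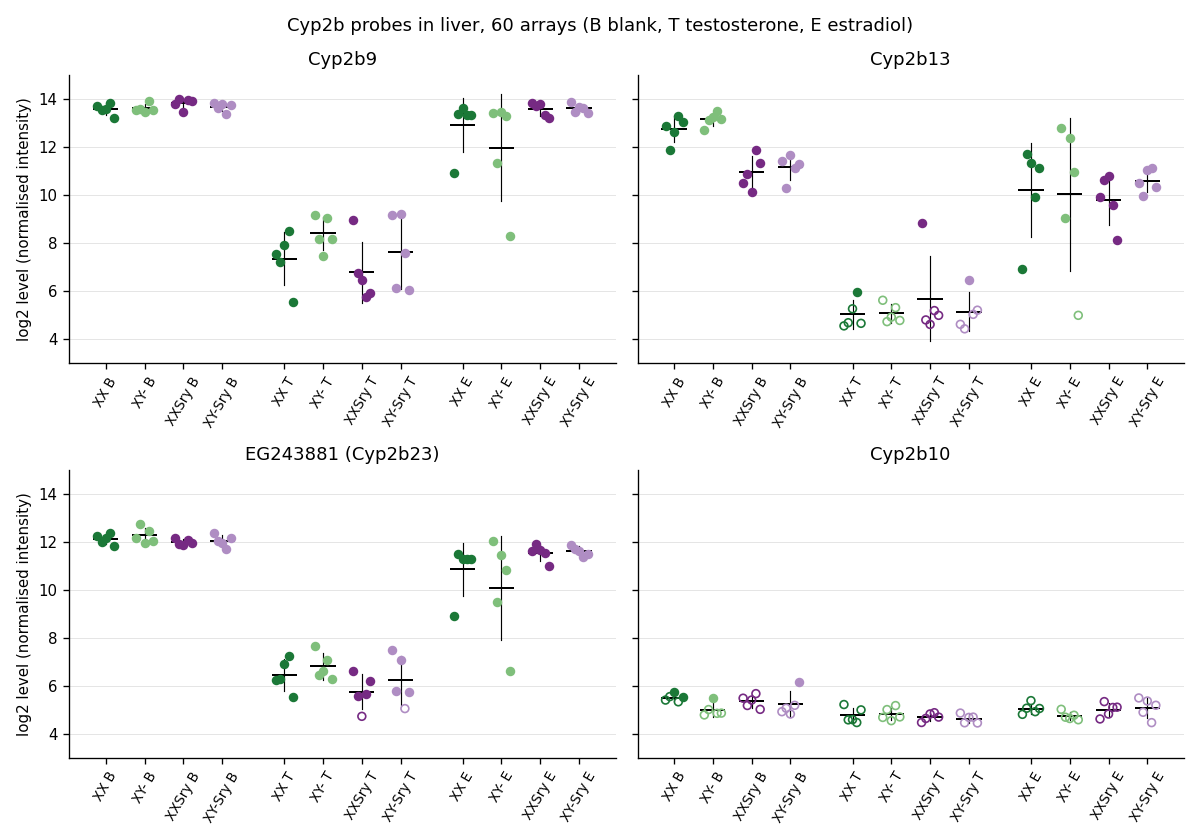
Levels of the 4 Cyp2b probes in liver, on a log2 axis, in the 12 genotype and treatment groups (B blank, T testosterone, E estradiol), 5 arrays each. Filled points are arrays with the probe detected and open points arrays without; horizontal bars are means and vertical bars 1 SD. The testosterone arrays of Cyp2b9, Cyp2b13 and EG243881 all sit below every blank array, and the Cyp2b13 blank arrays split by Sry. The share of all tested probes that separate in either way is not given here.

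The Cyp2b9 levels under testosterone were widely spread between arrays of 1 genotype. XX T arrays lay at 7.56, 7.21, 7.91, 8.50 and 5.56, and XY- T arrays at 9.15, 8.15, 7.47, 9.04 and 8.17. XXSry T arrays lay at 8.94, 6.76, 6.47, 5.76 and 5.93, and XY-Sry T arrays at 9.15, 6.13, 9.20, 7.59 and 6.02. The 4 groups overlapped, and in the order of their means, XY- (8.39), XY-Sry (7.62), XX (7.35) and XXSry (6.77), neighbours were apart by less than the larger of their SDs (0.70, 1.55, 1.11 and 1.28, in that order). The SD of Cyp2b9 over the testosterone arrays was 1.25, against 0.21 over the blank arrays. Within genotypes the difference of testosterone from blank was -6.22 in XX, -5.21 in XY-, -7.04 in XXSry and -6.05 in XY-Sry (SE 0.60 each).

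Cyp2b13 was detected in 3 of 20 testosterone arrays, against 20 of 20 with blank capsules and 19 of 20 under estradiol. Its blank arrays lay at 10.12 to 13.48 with a median of 11.88, its testosterone arrays at 4.42 to 8.82 with a median of 4.95, and its estradiol arrays at 4.99 to 12.80 with a median of 10.56. Blank and testosterone arrays did not overlap. The fitted difference of estradiol from blank was -1.84 ± 0.39. For testosterone, where 17 of 20 arrays were not detected, the fitted value of -6.77 rests on background and was -4.78 with no background correction. With each testosterone array at the higher of its own level and the lowest level among its detected probes, a setting added after the data were seen, the difference was -6.23. In XY- T none of 5 arrays was detected, and there the level was at least 195-fold lower than in XY- B by the same setting. The 3 testosterone arrays with Cyp2b13 detected were XXSry T replicate 1 (8.82), XY-Sry T replicate 3 (6.45) and XX T replicate 4 (5.97).

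EG243881 (Cyp2b23) lay at 11.68 to 12.75 in the blank arrays, at 4.73 to 7.66 under testosterone and at 6.61 to 12.05 under estradiol, with medians of 12.05, 6.29 and 11.45. Testosterone and blank arrays did not overlap, and 16 of the 20 estradiol arrays fell below the lowest blank array. The share of all tested probes whose testosterone and blank arrays did not overlap is not given here. How unusual this is for Cyp2b9, Cyp2b13 and EG243881 was therefore not tested. The difference from blank was -5.78 ± 0.25 for testosterone and -1.08 ± 0.25 for estradiol. The 4 genotypes gave -5.66 in XX, -5.45 in XY-, -6.23 in XXSry and -5.79 in XY-Sry for testosterone (SE 0.50 each). The probe was detected in 18 of 20 testosterone arrays. The size of its testosterone difference depended on the background correction, and was -4.50 over all genotypes without it.

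The Cyp2b10 probe was at background in nearly all liver arrays. It was detected in 4 arrays, all of blank groups: XX B replicate 3 (5.74), XX B replicate 5 (5.52), XY- B replicate 3 (5.48) and XY-Sry B replicate 5 (6.15). The level ranged over 4.79 to 6.15 with blank capsules, 4.45 to 5.22 with testosterone and 4.47 to 5.49 with estradiol, so the treatments overlapped, and no fold is given between groups not well above background. The probe is not evidence on the whole Cyp2b10 gene, since the array held another probe under a synonym, described with the closing observations.

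The share of all 11317 tested liver probes that was called at an adjusted p under 0.05 (limma, Benjamini-Hochberg) was 19.1% for testosterone against blank and 6.82% for estradiol against blank. Of the called probes 42.8% were higher with testosterone and 52.1% with estradiol, and 16.5% and 8.55% when arrays were centred on their median in place of quantile normalisation. Median centring moved the median of all liver probes for estradiol from -0.02 to -0.18. Within the slides that held both treatments, the testosterone difference was negative in 3 of 3 slides for each of the 3 members, from -7.12 to -5.06 for Cyp2b9, from -7.21 to -5.84 for Cyp2b13 and from -6.07 to -5.10 for EG243881. The estradiol difference was negative in 2 of 2 slides for each, from -0.66 to -0.24 for Cyp2b9, from -1.90 to -1.20 for Cyp2b13 and from -1.19 to -0.71 for EG243881. Markers of macrophages and Kupffer cells, the resident macrophages of liver, also moved with the hormones. Of 5 tested markers, 4 rose with estradiol, by 0.42 to 0.79, and 2 fell with testosterone (limma, adjusted p under 0.05), and 2 and 1 did so with median centring. Their part in the Cyp2b differences was not tested. In tissue RNA, fewer cells of a type and less RNA per cell cannot be told apart. The summed level of the hepatocyte markers was 89927 to 102291 in the blank arrays, 84957 to 103069 under testosterone and 91353 to 108936 under estradiol on the linear scale.

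The estradiol differences rested in part on few arrays. XX E replicate 1 read 10.89 for Cyp2b9, 6.93 for Cyp2b13 and 8.90 for EG243881, while the other 4 arrays of its group read 13.31 to 13.60 for Cyp2b9. In XY- E the 5 arrays read 13.41, 11.34, 13.45, 13.30 and 8.31 for Cyp2b9, so replicates 2 and 5 were low. They read 12.80, 9.02, 12.36, 10.93 and 4.99 for Cyp2b13, and 12.05, 9.48, 11.44, 10.80 and 6.61 for EG243881, and the same 2 arrays were lowest in each. XX E replicate 1 was chosen for leaving out by its low Cyp2b levels, while XY- E replicate 2, also low, was kept. Without XX E replicate 1 and XY- E replicate 5 the estradiol difference was -0.30 ± 0.24 for Cyp2b9, -1.32 ± 0.28 for Cyp2b13 and -0.74 ± 0.17 for EG243881, while the testosterone differences moved by under 0.01. Within genotypes and without these arrays, the estradiol difference of Cyp2b9 was -0.16 in XX, -0.72 in XY-, -0.24 in XXSry and -0.06 in XY-Sry (SE 0.46 to 0.49), against -0.67 in XX and -1.64 in XY- with them.

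**Figure D2:**
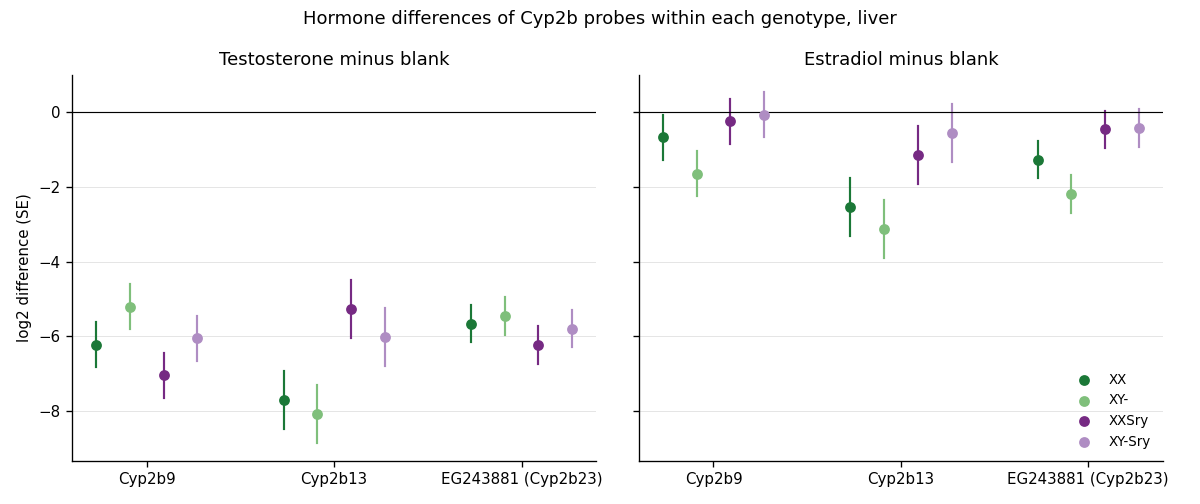
Log2 difference of testosterone (left) and estradiol (right) from blank in liver for 3 Cyp2b probes within each genotype; points are fitted differences and bars 1 SE, with 5 arrays a group. Every testosterone difference of Cyp2b9 and EG243881 lies between -7.04 and -5.21, those of Cyp2b13 rest on testosterone arrays mostly at background, and the estradiol differences of XX and XY- include the low arrays XX E replicate 1 and XY- E replicate 5.

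The contrasts that did not choose these genes were the presence of Sry, the sex chromosome complement and the interactions. Over 10 such contrasts in liver, 0 of 30 tests of the 3 members were called by limma at a Benjamini-Hochberg adjusted p under 0.05, and 6 of the 30 had an unadjusted p under 0.05. Of the 6, 1 was for Sry in blank arrays, 2 for Sry under estradiol, 1 for testosterone by Sry and 2 for estradiol by Sry. Over all 11317 tested probes, 1114, 1353, 659 and 622 had an unadjusted limma p under 0.05 in those contrasts, in that order. The interactions share blank and estradiol values with the other contrasts, so the 6 are not independent. The interactions with the hormones also use the liver values of the hormone differences that chose the genes, so they are not free of that choice. Sry was compared as groups with the transgene minus groups without. Averaged over treatments, 0 of 3 members were called, beside 3.4% of all tested probes, with differences of 0.21 ± 0.25 for Cyp2b9, -0.48 ± 0.32 for Cyp2b13 and 0.10 ± 0.21 for EG243881.

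In the blank arrays Cyp2b13 stood lower in mice with Sry than in mice without, and the groups of Cyp2b9 and EG243881 overlapped. The Cyp2b13 levels of XX B were 12.86, 11.89, 12.61, 13.29 and 13.04, and those of XY- B were 12.71, 13.12, 13.26, 13.48 and 13.16. Those of XXSry B were 10.51, 10.88, 10.12, 11.87 and 11.33, and those of XY-Sry B were 11.42, 10.29, 11.64, 11.13 and 11.27. All 10 arrays with Sry lay below all 10 arrays without, the highest of the former at 11.87 and the lowest of the latter at 11.89. The share of all tested probes that separated the blank arrays in this way is not given here, so how unusual this is was not tested. The order of the Cyp2b13 blank groups was XY-, XX, XY-Sry and XXSry, with means of 13.14 ± 0.28, 12.74 ± 0.54, 11.15 ± 0.52 and 10.94 ± 0.68 (SD, n = 5). The first pair and the last pair were each apart by less than the larger of their SDs. The difference was -1.89 ± 0.55 and missed the threshold (limma, Benjamini-Hochberg adjusted p = 0.0584), beside 1.75% of all probes called in this contrast and 1.47% called lower. It was negative in 5 of 5 slides that held both kinds of mouse, from -2.72 to -1.15.

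The call on this Cyp2b13 difference depended on the setting, and 7 of 9 other settings called it. On the same 60 arrays it was called with no background correction (adjusted p = 0.00580), with an offset of 50 (0.0177), with slide as a block (0.0330) and with array weights (0.00235), all by limma. Fitted on the 20 blank arrays alone, a setting added after the data were seen, the same difference had an SE of 0.21 and an adjusted p of 4e-06 (limma), beside 2.02% of probes called. With 1 array left out it was called in 5 of 60 cases: without XY- E replicate 5 (adjusted p = 0.00683), without XX E replicate 1 (0.0282), without XXSry T replicate 1 (0.0321), without XY- E replicate 1 (0.0387) and without XY- E replicate 3 (0.0444). Over the 9 other settings its adjusted p ranged from 4e-06 to 0.151 (limma), the highest with no filter on dim probes.

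For Cyp2b9 the blank arrays differed by Sry by 0.16 ± 0.43 and for EG243881 by -0.18 ± 0.36, with 95% intervals of -0.70 to 1.01 and -0.89 to 0.53. Fitted on the blank arrays alone the differences were 0.16 ± 0.11 and -0.18 ± 0.12 (adjusted p = 0.718 and 0.676, limma). The Cyp2b9 arrays with Sry lay at 13.39 to 13.97 and those without at 13.19 to 13.90, so the groups overlapped. The EG243881 arrays with Sry lay at 11.68 to 12.36 and those without at 11.83 to 12.75. Within 5 of 5 slides the difference was positive for Cyp2b9, from 0.0061 to 0.28, and negative for EG243881, from -0.38 to -0.11. The difference between the members in this contrast was not tested.

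The macrophage and Kupffer cell markers moved with Sry too. Of the 5 tested (Cd68, Clec4f, Marco, Adgre1 and Vsig4), 5 were lower in groups with Sry over all treatments, beside 2.85% of all probes called lower, with differences of -0.72 to -0.40, and 4 of the 5 were called with median centring. In the blank arrays the summed level of 6 such markers was 1584 to 2258 with Sry and 2760 to 6368 without, and the ranges did not overlap. Summed hepatocyte markers lay at 95712 to 101505 with Sry and 89927 to 102291 without in the same arrays. The part of these cell markers in the Cyp2b13 difference was not tested.

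Under estradiol the Cyp2b13 difference by Sry was 0.09 ± 0.55, and -0.54 ± 0.45 without XY- E replicate 5 or -0.95 ± 0.40 without XX E replicate 1 too, none of them called. Its arrays lay at 8.12 to 11.13 with Sry and 4.99 to 12.80 without. Cyp2b9 was higher with Sry by 1.16 ± 0.43 and EG243881 by 1.11 ± 0.36, and neither passed the threshold (limma, Benjamini-Hochberg adjusted p = 0.167 and 0.0861), beside 2.44% of probes called. With slide as a block EG243881 passed (limma adjusted p = 0.0496), and within slides its difference was positive in 5 of 5, from 0.28 to 2.29. Both values fell to 0.45 and 0.44 without XX E replicate 1 and XY- E replicate 5, and to 0.70 and 0.68 without the latter and XY-Sry T replicate 5. Under testosterone the differences by Sry were -0.68 ± 0.43 for Cyp2b9, 0.37 ± 0.55 for Cyp2b13 and -0.64 ± 0.36 for EG243881, and 0 of 3 were called, beside 0.212% of probes.

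Cyp2b13 was detected in 1 of 10 testosterone arrays without Sry and in 2 of 10 with it, so its testosterone differences there rest on background. They were -7.90 and -5.64 as fitted, and -7.37 and -5.09 with testosterone arrays held at the lowest detected level. The interaction, the second minus the first, was 2.26 ± 0.78 with a 95% interval of 0.70 to 3.82 and was not called (limma, Benjamini-Hochberg adjusted p = 0.578, unadjusted p = 0.00528), beside 0.124% of probes. This interaction uses the same blank values as the gap by Sry in the blank arrays, and its testosterone values are mostly at background. The testosterone interactions of Cyp2b9, -0.83 ± 0.60, and of EG243881, -0.46 ± 0.50, had the opposite sign and were not called. For estradiol the interactions with Sry were 1.0 ± 0.60 for Cyp2b9, 1.98 ± 0.78 for Cyp2b13 and 1.29 ± 0.50 for EG243881, with 0 of 3 called, beside 0.0795% of probes. Without XX E replicate 1 and XY- E replicate 5 they were 0.29, 0.95 and 0.62.

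**Figure D3:**
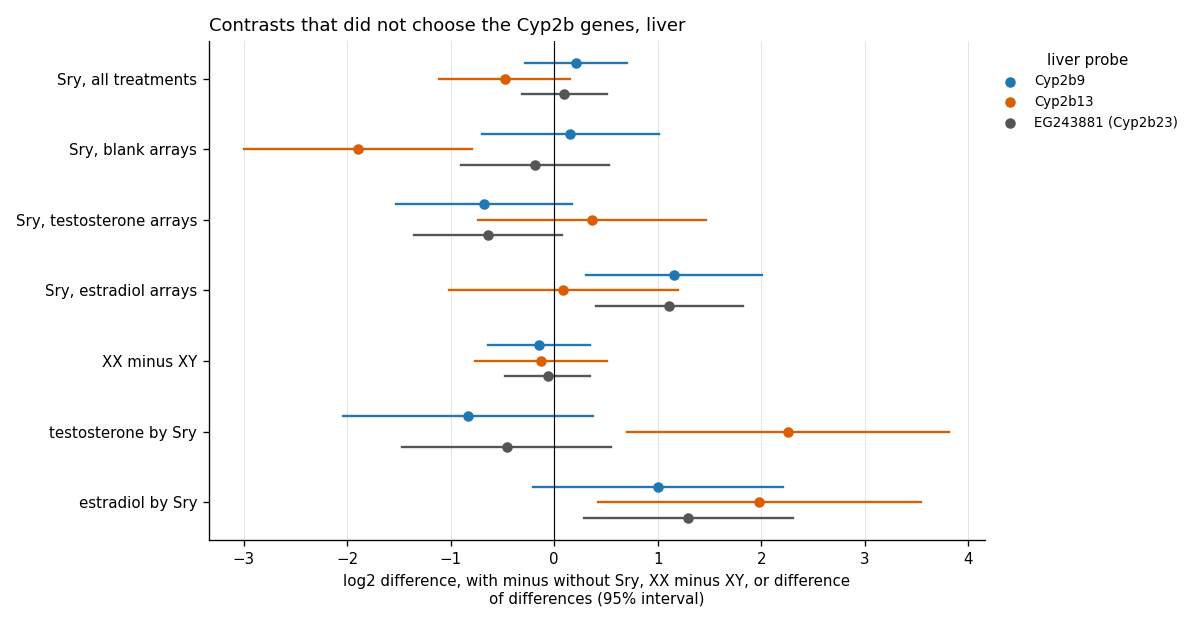
Log2 differences of 3 Cyp2b probes in liver in the contrasts that did not choose the genes; points are limma estimates and bars 95% intervals. Sry means groups with the transgene minus groups without. The interactions with the hormones use the values of the hormone differences that chose the genes. The interval of Cyp2b13 in the blank arrays lies below 0, those of testosterone by Sry and estradiol by Sry lie above 0, and those of XX minus XY all span 0.

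XX and XY mice differed by -0.14 ± 0.25 for Cyp2b9, -0.12 ± 0.32 for Cyp2b13 and -0.06 ± 0.21 for EG243881, XX minus XY. None of the 3 was called, beside 0.186% of probes, and the 95% intervals, from -0.64 to 0.35, from -0.76 to 0.51 and from -0.47 to 0.35, bound the differences these arrays allow. Without XY-Sry T replicate 5 and XY- E replicate 5, the arrays against their labels, the values were -0.36 ± 0.20, -0.33 ± 0.26 and -0.23 ± 0.16, and none was called (limma adjusted p = 0.999 each). Without XY- E replicate 5 alone they were -0.30, -0.33 and -0.21. The interactions of sex chromosomes with testosterone, with estradiol and with Sry were also called for 0 of 3 members, as for 0 of all 11317 tested probes.

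Of the 3 pairs of members, Cyp2b9 and EG243881 had the highest correlation over the blank arrays. Over the 20 blank arrays, with group means removed, Pearson's r of Cyp2b9 with EG243881 was 0.618 and Spearman's rho 0.683 (permutation test within groups, two-sided, 100000 resamples, p adjusted over 3 pairs 0.0131 and 0.00408). For Cyp2b9 with Cyp2b13, r was 0.456 and rho 0.501 (adjusted p = 0.119 and 0.0517, the same permutation test). For Cyp2b13 with EG243881, r was 0.224 and rho 0.271 (adjusted p = 0.303 and 0.255, the same permutation test). Without the 2 arrays farthest from the median the 3 values of r were 0.580, 0.505 and 0.188, and with slide means removed too they were 0.435, 0.330 and 0.290. On the log2 deposited signal, before background correction and normalisation, they were 0.837, 0.796 and 0.679, so the gap between the pairs depended on the processing. A difference between the pairs was not tested. The blank arrays share slides, and probes of close genes may share signal.

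Over the 12 group means of liver, r between the members was 0.995 for Cyp2b9 with EG243881, 0.964 for Cyp2b13 with EG243881 and 0.943 for Cyp2b9 with Cyp2b13, given as a description. Among all other tested probes, the 3 most like Cyp2b9 were Prlr, the prolactin receptor (r 0.990), the cytokine gene Il15 (0.988) and Hamp2, a hepcidin gene (0.983). Those most like Cyp2b13 were E030006K04Rik, now Arap3 (0.975), Pte2b, now the acyl-CoA thioesterase gene Acot4 (0.972), and Hamp2 (0.966). Those most like EG243881 were Pte2b (0.986), Pte2a, now Acot3 (0.985), and Prlr (0.984). The testosterone difference was -2.15 ± 0.13 for Prlr, -2.10 ± 0.16 for Hamp2, -1.94 ± 0.13 for Pte2b and -4.61 ± 0.28 for Pte2a. These were smaller in size than the member differences. The genes were picked for group means like those of the members, so their testosterone differences follow from the choice and are given without a test. The group means share the same arrays and the same hormone split, which sets most of each r.

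Genes around the Cyp2b cluster and genes that act on it were read from 4 lists. Of 9 neighbouring Cyp2 genes, 4 were tested in liver, and testosterone lowered 2 and raised 1. Cyp2g1 fell by 1.77 ± 0.20 and Cyp2a5, a coumarin hydroxylase, fell by 1.02 ± 0.16, while Cyp2f2, which bioactivates naphthalene, rose by 0.20 ± 0.08 (limma, Benjamini-Hochberg adjusted p = 5.71e-10, 1.94e-06 and 0.0491). Of all tested probes, 8.17% were called higher and 10.9% lower with testosterone. The median of the list was -0.55, against 0.00 over all probes. None of the 4 was called for estradiol or for Sry. With median centring Cyp2f2 was not called (limma adjusted p = 0.277).

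The receptors and partners that act on Cyp2b10 are given beside all tested probes, of which 8.17% were called higher and 10.9% lower with testosterone. Of 10 tested genes, testosterone lowered Nr1i3, the constitutive androstane receptor itself, by -0.67 ± 0.13 and the coactivator Ppargc1a by -0.49 ± 0.12, and raised Ppp2r1a, a scaffold subunit of protein phosphatase 2A, by 0.27 ± 0.08 (limma, Benjamini-Hochberg adjusted p = 0.000151, 0.00222 and 0.0156). With median centring Ppp2r1a was not called (limma adjusted p = 0.530). The list median was 0.01. The pregnane X receptor Nr1i2, at 0.04 ± 0.18, was not called. Estradiol lowered 1 of the 10, the retinoid X receptor Rxra, by -0.24 ± 0.08 (adjusted p = 0.0431, limma), and Sry was called for none. With estradiol 3.27% of all tested probes were called lower. With median centring estradiol lowered 3 of the 10, Nr1i3 (-0.52), Rxra (-0.44) and Rxrb (-0.30), with limma adjusted p of 0.0464, 0.0148 and 0.0410.

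Of 22 tested targets of these receptors and enzymes of the same reactions, testosterone lowered 6 and raised 2 (4 and 1 with median centring), with a list median of -0.12. Beside them, 10.9% of all tested probes were called lower with testosterone and 8.17% higher. The 3 largest were Cyp2a5 (-1.02), Gstm2, a glutathione transferase (-0.57 ± 0.09), and Ces2a, a carboxylesterase (0.47 ± 0.10), with limma adjusted p of 1.94e-06, 7.78e-06 and 0.000244. Estradiol lowered 6 of the 22 and raised none, beside 3.27% of all probes called lower and 3.55% called higher. Sry raised 2 of the 22, Cyp2c55 by 0.91 ± 0.13 and Ces2a by 0.37 ± 0.08 (limma, Benjamini-Hochberg adjusted p = 1.43e-06 and 0.00148), and lowered none, beside 0.548% of all probes called higher.

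Of 14 tested genes of growth hormone signalling, testosterone lowered 6 and raised 1, with a list median of -0.14. Beside them, 10.9% of all tested probes were called lower with testosterone and 8.17% higher. Cux2, a transcription factor of female liver, was detected in 20 of 20 blank arrays and in 0 of 20 testosterone arrays, at least 5.82-fold lower (limma, Benjamini-Hochberg adjusted p = 1.12e-17). Bcl6, a repressor of male liver, rose by 1.12 ± 0.29, and Cish, a feedback inhibitor of the pathway, fell by 0.89 ± 0.30 (adjusted p = 0.00396 and 0.0284, limma). Estradiol raised 2 of the 14 and lowered none, while with median centring it raised none and lowered 1, and Sry was called for none of them. With estradiol 3.55% of all tested probes were called higher and 3.27% lower. The growth hormone receptor Ghr was not called for testosterone, at 0.10 ± 0.10.

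**Figure D4:**
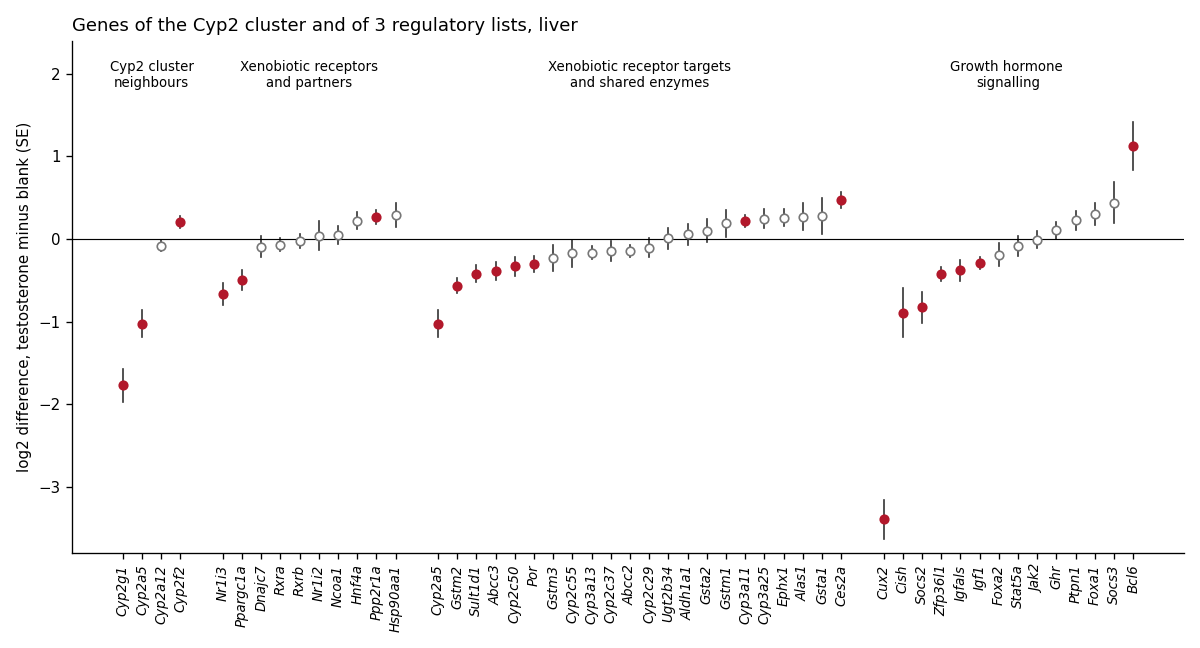
Log2 difference of testosterone from blank in liver for the tested genes of 4 lists; points are limma estimates, bars 1 SE, and red points are called at an adjusted p under 0.05. The largest value is that of Cux2, at background in all testosterone arrays, and most genes of the receptor list lie near 0.

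In inguinal adipose tissue the family was at background in most arrays. Cyp2b9 was detected in 8 of 55 arrays, Cyp2b13 and EG243881 in 3 each and Cyp2b10 in none. Over the 55 arrays Cyp2b9 ranged from 4.66 to 12.69, with medians of 4.93, 5.00 and 4.84 in the blank, testosterone and estradiol arrays. The highest value in each of these 3 probes came from XY-Sry T replicate 1, at 12.69 for Cyp2b9, 9.83 for Cyp2b13 and 10.71 for EG243881.

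The adipose arrays with Cyp2b9 detected were those with the most hepatocyte marker RNA. The mean level of the 8 hepatocyte markers was 7.54 to 11.92 in the 8 arrays with Cyp2b9 detected and 4.80 to 7.34 in the other 47, so that the ranges did not overlap, and the 8 arrays came from 7 of the 12 groups. In XY-Sry T replicate 1 all 8 markers were detected, albumin at 11.00. Their mean of 11.92 lay within the 11.85 to 12.49 of liver arrays, though the tissues were normalised separately. The highest liver testosterone arrays lay at 9.20 for Cyp2b9, 8.82 for Cyp2b13 and 7.66 for EG243881. This adipose array, labelled testosterone, lay above them in all of these probes, and whether its label is right was not tested. The next arrays in this order were XXSry B replicate 1, with a mean of 9.40, Cyp2b9 at 9.23, Cyp2b13 at 7.20 and EG243881 at 6.58, and XX T replicate 4, with 9.26, 8.36, 7.0 and 6.89. These 3 arrays were the only ones of the 55 with Cyp2b13 or EG243881 detected. The part of liver RNA in the adipose values of the family was not tested beyond this order and a fit with the marker mean as a covariate.

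**Figure D5:**
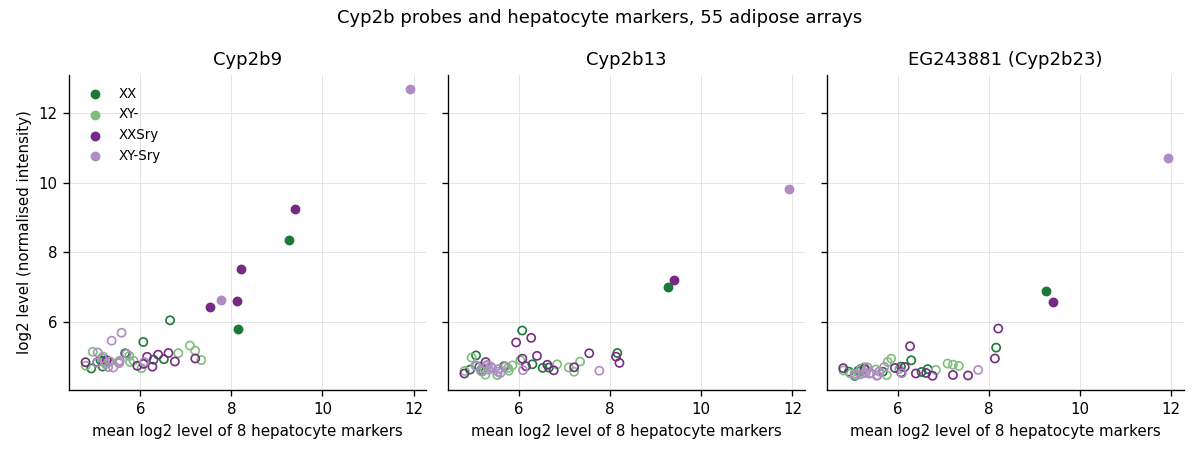
Level of 3 Cyp2b probes against the mean log2 level of 8 hepatocyte markers in 55 adipose arrays, coloured by genotype; filled points are arrays with the probe detected and open points arrays without. The 8 arrays with Cyp2b9 detected are the 8 farthest to the right, up to 12.69 at a marker mean of 11.92.

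No contrast in adipose tissue called a member: 0 of 36 tests over 12 contrasts passed (limma, Benjamini-Hochberg), and 0 had an unadjusted p under 0.05. For testosterone, where 4.75% of 14636 tested adipose probes were called, the differences were 0.39 ± 0.45 for Cyp2b9, 0.26 ± 0.27 for Cyp2b13 and 0.44 ± 0.31 for EG243881. For estradiol (20.5% called) they were -0.23 ± 0.45, -0.09 ± 0.27 and -0.07 ± 0.31, and for Sry (7.34% called, 35.8% of them higher, or 23.4% with median centring) 0.44 ± 0.37, 0.19 ± 0.22 and 0.15 ± 0.25. For the sex chromosomes (0.137% called) they were 0.23 ± 0.37, 0.20 ± 0.22 and 0.05 ± 0.25. In the remaining contrasts the share of all probes called was 1.8% for Sry in blank arrays, 3.42% in testosterone arrays and 4.4% in estradiol arrays, 0.0137% for the interaction of testosterone with Sry, 0.813% for that of estradiol with Sry, and 0% for each interaction with the sex chromosomes. Without XY-Sry T replicate 1 the testosterone difference of Cyp2b9 was 0.01 and its Sry difference 0.19. With the hepatocyte marker mean in the fit its testosterone difference was -0.0023. The probes passed the filter in adipose tissue only through the few arrays named above.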

How the data were processed

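Per the file headers, the deposited tables give each probe's linear bead intensity and its detection p-value on every array. The submitters' processing notes name lumi without a step, and the genome build is not given in the sources used here. The tables' 115 bead standard error columns were not used. With limma 3.58.1 (R 4.3.3) each tissue was corrected by normexp (nec, which here infers the negative controls from detection p) with an offset of 16, quantile normalised and taken to log2, which understates differences of dim probes. A model with a mean per group was fitted (lmFit, eBayes) to the 11317 liver and 14636 adipose probes that passed the detection filter, with Benjamini-Hochberg adjustment over them. The code was tested on simulated data. Groups came from the labels; 1 adipose array (XX E replicate 1) has conflicting labels and was kept as estradiol. Replicate numbers only name arrays. Each liver slide lacked at least 1 treatment. The members, gene lists and tests were chosen with earlier results of these data known. Named genes are all members and, per list, up to 3 genes with the largest called testosterone difference and up to 2 for Sry, with the 3 probes most alike per member; Nr1i2, Rxra, Rxrb and Ghr lie outside this rule and were chosen after their values were seen. Current symbols come from RefSeq (GRCm38.p6), which matched 97.5% of tested probes in liver and 97.4% in adipose tissue. Correlations used permutation tests. Depth is a matter of the number of arrays, which limits the precision. Alternatives were other background corrections, offsets and scaling, no filter, slide as a block, array weights and left-out arrays.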

Additional observations from a re-analysis of the deposited data

Results flagged for a closer look

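Of 92 sets of values, 1 per probe and group of 4 or 5 arrays, 20 held an array that stood apart from the rest of its group by Dixon's test, where chance flags about 1 in 20 sets. In liver, Cyp2b9 was low in XX E replicate 1 at 10.89, with the other arrays at 13.31 to 13.60, and EG243881 was low in the same array at 8.90, with the others at 11.28 to 11.47. Cyp2b9 was high in XY- B replicate 4 at 13.90, with the others at 13.46 to 13.56. Cyp2b13 was high in XXSry T replicate 1 at 8.82, with the others at 4.61 to 5.18, and that array also had the highest Cyp2b9 level of its group. Cyp2b10 was high in XY-Sry B replicate 5 at 6.15, with the others at 4.82 to 5.18.

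In adipose tissue the array XY-Sry T replicate 1 stood apart in Cyp2b9 (12.69), Cyp2b13 (9.83) and EG243881 (10.71). Its hepatocyte marker mean lay within the range of the liver arrays, which were normalised separately. XX T replicate 4 stood apart in Cyp2b9 (8.36) and EG243881 (6.89), and XXSry T replicate 5 in Cyp2b9 (7.52) and EG243881 (5.81). XX E replicate 1, with conflicting labels, stood apart in Cyp2b9 (5.79) and EG243881 (5.26). XXSry E replicate 1 (6.61) and XY-Sry E replicate 1 (6.62) stood apart in Cyp2b9, and both had that probe detected. The EG243881 probe was not detected in XX E replicate 1 or XXSry T replicate 5. The other 4 values were also of probes not detected: Cyp2b9 in XY-Sry B replicate 1 (5.69), Cyp2b10 in the same array (5.26), and Cyp2b13 in XY- E replicate 4 (4.97) and XY- T replicate 2 (4.90).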

How the results depend on the processing

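No paired analysis was possible because the labels give no replicate numbers, and the numbers used here only name arrays; slides, which hold arrays of several groups, were used as a block and for differences within slides. Differences are log2, adjusted p-values are limma's with Benjamini-Hochberg adjustment, and the cause of a change was not tested. The next counts cover all settings other than 1 array left out in turn, and so include those that left out pairs of arrays. Among the member differences and counts of member calls, 246 values kept their direction and side of the threshold, 16 reversed, 12 passed the threshold and 9 moved. Of the group levels and the counts of all probes called, 162 stayed within 1 SD or 1.5 times and 31 moved.

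Without background correction the testosterone difference was -4.78 for Cyp2b13 and -4.50 for EG243881. The Cyp2b13 difference by Sry in blank arrays passed limma's threshold without background correction (-1.83, adjusted p = 0.00580), with an offset of 50 (-1.87, adjusted p = 0.0177), with slide as a block (-1.89, adjusted p = 0.0330), with array weights (-2.05, adjusted p = 0.00235), without both arrays that went against their labels (-1.89, adjusted p = 0.00759), without XX E replicate 1 and XY- E replicate 5 (-1.89, adjusted p = 0.00110) and in blank arrays alone (-1.89, adjusted p = 4e-06). The last 2 settings were added after seeing the data. The EG243881 difference by Sry under estradiol passed limma's threshold without background correction (0.96, adjusted p = 0.0350), with an offset of 50 (1.06, adjusted p = 0.0457), with median centring (1.24, adjusted p = 0.0499) and with slide as a block (1.11, adjusted p = 0.0496). The Cyp2b13 difference by Sry under estradiol reversed to -0.14 (no background correction), -0.024 (offset 50), -0.45 (weights), -0.54 (both arrays against their labels left out) and -0.95 (XX E replicate 1 and XY- E replicate 5 left out). Leaving out the last pair also gave limma differences by Sry over all treatments of -0.83 for Cyp2b13 (adjusted p = 0.0181), -0.023 for Cyp2b9 and -0.13 for EG243881. That of EG243881 was -0.034 with weights and -0.026 without the arrays against their labels. In the pair, XX E replicate 1 was chosen by its low Cyp2b levels, and both arrays lacked Sry. Leaving them out raises the estradiol level without Sry by construction, so the p-values of that setting are no independent test. XX minus XY became 0.013 for EG243881 with median centring, and 0.013 for Cyp2b9 and 0.026 for EG243881 with weights. Of the 30 member tests, 2 were called with no background correction, with the larger offset, without XX E replicate 1 and XY- E replicate 5, and with the slide block, and 1 with median centring, with weights and without the arrays against their labels. In adipose tissue the testosterone difference of Cyp2b9 was -0.073 with slide as a block and -0.0023 with the hepatocyte mean as a covariate, which also gave EG243881 0.013 for estradiol and -0.035 for Sry.

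With 1 array left out in turn, the difference by Sry of Cyp2b13 ranged from -2.01 to -1.79 in blank arrays and from -0.54 to 0.44 under estradiol. That of EG243881 ranged from 0.68 to 1.36 under estradiol and from -0.046 to 0.18 over all treatments. XX minus XY ranged from -0.33 to 0.012 for Cyp2b13 and from -0.21 to 0.020 for EG243881, and 0 to 2 member tests were called.

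With median centring, counts of all liver probes called went from 2162 to 1370 for testosterone, from 772 to 1392 for estradiol, from 385 to 232 for Sry and from 276 to 140 for Sry under estradiol. Under testosterone the count for Sry went from 24 to 9, to 14 without background correction and to 38 with weights. Under estradiol it was 451 with slide as a block and 424 without the arrays against their labels. The interaction of testosterone with Sry went from 14 to 24 (slide) and 26 (weights), and that of estradiol from 9 to 4 without the filter, 36 with slide or weights, 37 without the arrays against their labels, 35 without XY- E replicate 5 alone and 32 without XX E replicate 1 and XY- E replicate 5. The count for Sry over all treatments was 561 with slide as a block. The count for Sry in blank arrays rose from 198 to 319 with slide as a block and to 369 with weights. Adipose counts for testosterone went from 695 to 306 with median centring, 256 with slide as a block and 1064 with weights, and for estradiol from 3003 to 1936 with median centring.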

Other observations

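A probe with the symbol Cyp2b20, which RefSeq lists as a synonym of Cyp2b10, lay outside the rule and was looked at after its values were seen. It was detected in 60 of 60 liver arrays, unlike the Cyp2b10 probe. It lay at 10.37 to 11.65 in the blank arrays (median 11.08), at 6.97 to 10.13 under testosterone (median 8.80) and at 8.79 to 11.01 under estradiol (median 10.58). The testosterone arrays did not overlap with the blank arrays, and the share of all tested probes of which this holds is not given here. Since the Cyp2b20 probe was picked after its values were seen, its p-values are no independent test. Testosterone lowered it by -2.31 ± 0.16 and estradiol by -0.61 ± 0.16 (limma, Benjamini-Hochberg adjusted p = 8.47e-18 and 0.0102). Sry changed it by -0.17 ± 0.13, which was not called (adjusted p = 0.724, limma). In adipose tissue it was detected in 7 of 55 arrays, 6 of them with testosterone, and the testosterone difference was 1.08 ± 0.32 (adjusted p = 0.0381, limma). The highest level, 10.23, was in XY-Sry T replicate 1, the adipose array with the highest hepatocyte marker mean. The hepatocyte marker mean of the 7 arrays ranged from 5.85 to 11.92. The difference was 0.84 without that array (adjusted p = 0.0342), 0.91 with the marker mean as a covariate (0.0451) and 0.91 with slide as a block, where it was not called (0.311, limma), all added after the data were seen. The 2 probes under names of 1 gene thus gave different values, and which transcript each reads was not tested. The probe of Cyp2b19, a family member of skin, was detected in 0 of 60 liver arrays and 1 of 55 adipose arrays.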
